A study of Rattus norvegicus with 8 samples.

Results

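NMDA receptors are glutamate-gated cation channels of excitatory synapses. Each is a tetramer with obligatory GluN1 subunits, encoded by Grin1, which bind glycine or D-serine, together with GluN2 subunits, encoded by Grin2a to Grin2d, which bind glutamate and set the kinetics of the channel. GluN3 subunits, encoded by Grin3a and Grin3b, also bind glycine and lower the calcium flow of receptors that take them up. Opening needs glutamate, a co-agonist and relief of the magnesium block by depolarization, and the calcium that then enters drives synaptic plasticity. In the rodent forebrain Grin2b leads early in life and Grin2a rises as the cortex matures.

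The 7 subunit genes were read from 13 probe sets, those whose only gene symbol in the platform's annotation table was Grin1, Grin2a, Grin2b, Grin2c, Grin2d, Grin3a or Grin3b, out of 31099 probe sets on the array. RNA came from the frontal cortex of outbred Sprague-Dawley male rats that weighed about 200 g at the start. For 21 days they were given intraperitoneal olanzapine at 2 mg/kg/day or saline. Olanzapine is an antipsychotic drug whose known targets are mainly serotonin, dopamine, muscarinic and histamine receptors. Of 20 animals assigned at random to each group, 4 per group were put on arrays, 1 animal per array. The array titles carry the numbers 14, 15, 17 and 19 for saline and 9, 14, 18 and 19 for olanzapine. The titles do not say what these numbers stand for. The sources used here give neither the age of the rats nor the time from the last injection to dissection. The question addressed below is whether NMDA receptor subunit transcripts of the frontal cortex differed after repeated olanzapine.

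Values are deposited intensities, which are linear and already scaled to a common trimmed mean. Median intensity ran from 159 to 191 over the arrays, and each array correlated with the other 7 at a median of 0.949 to 0.968, lowest for saline 15. Neuronal and glial markers were present. The 4 excitatory neuron markers on the array summed to 3702 to 4285 in saline and 3909 to 4474 in olanzapine. The 6 GABAergic interneuron markers summed to 11948.5 to 14021 and 12147 to 13063. Sums of both neuronal lists overlapped between groups. Among the defining markers, Tbr1 of cortical excitatory neurons and Cx3cr1 and Itgam of microglia fell below the filter on dim probe sets. Of 5 striatal neuron markers 3 were above the filter and Drd2 and Adora2a below it, and the list summed to 907 to 1065 in saline and 789 to 1155 in olanzapine. Of 2 cerebellar granule cell markers on the array 1 was above the filter and Gabra6 below it, with sums of 186 to 253 and 204 to 353. The 6 markers of the meninges summed to 2126 to 2668 in saline and 2804 to 7868 in olanzapine, and the 5 astrocyte markers to 18294 to 20759 and 15877 to 17745. No single gene of these lists passed the adjusted test. The meninges sums did not overlap between groups, nor did the astrocyte sums, and their part in the values below was not tested. In bulk tissue, fewer cells of a type and less RNA per cell cannot be told apart.

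No NMDA receptor subunit transcript was shown to differ between olanzapine and saline. Differences are given as olanzapine minus saline on the scale log2(intensity + 63.4). The added value equals the 25th percentile of all deposited values. Folds are those of intensity + 63.4, and differences and folds understate changes of dim transcripts. Of the 13 probe sets, 9 lay above the filter, which removed probe sets at or below the 40th percentile of mean log2 value, and these stood for Grin1, Grin2a, Grin2b, Grin2c and Grin2d. By limma, 0 of these 9 passed an adjusted p of 0.05, against 0 of all 18625 probe sets tested (0%). At an unadjusted p under 0.05 there were 0 of the 9, against 8.32% of all tested. The groups did not overlap in 0 of the 9, against 4.47% of all tested. The adjusted p-values of the 9 ran from 0.738 to 0.999. Differences were positive for 7 and negative for 2 of the 9, beside 10428 positive and 8197 negative of all 18625 tested. The median of the 9 was 0.052 beside 0.027 over all tested probe sets. This median was -0.00018 after median centring, -0.0022 after quantile normalization and -0.014 after cyclic loess, so its sign changed with the scaling. With 1 array left out it ran from -0.017 without saline 14 to 0.13 without olanzapine 19. Of the 4 probe sets below the filter, 2 had an unadjusted p under 0.05, against 7% of all 31042 probe sets that are not controls. That share also takes in the brighter probe sets, and the share among dim ones alone was not computed. Counting all 13, the groups did not overlap in 1, against 3.8% of those 31042.

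**Figure D1:**
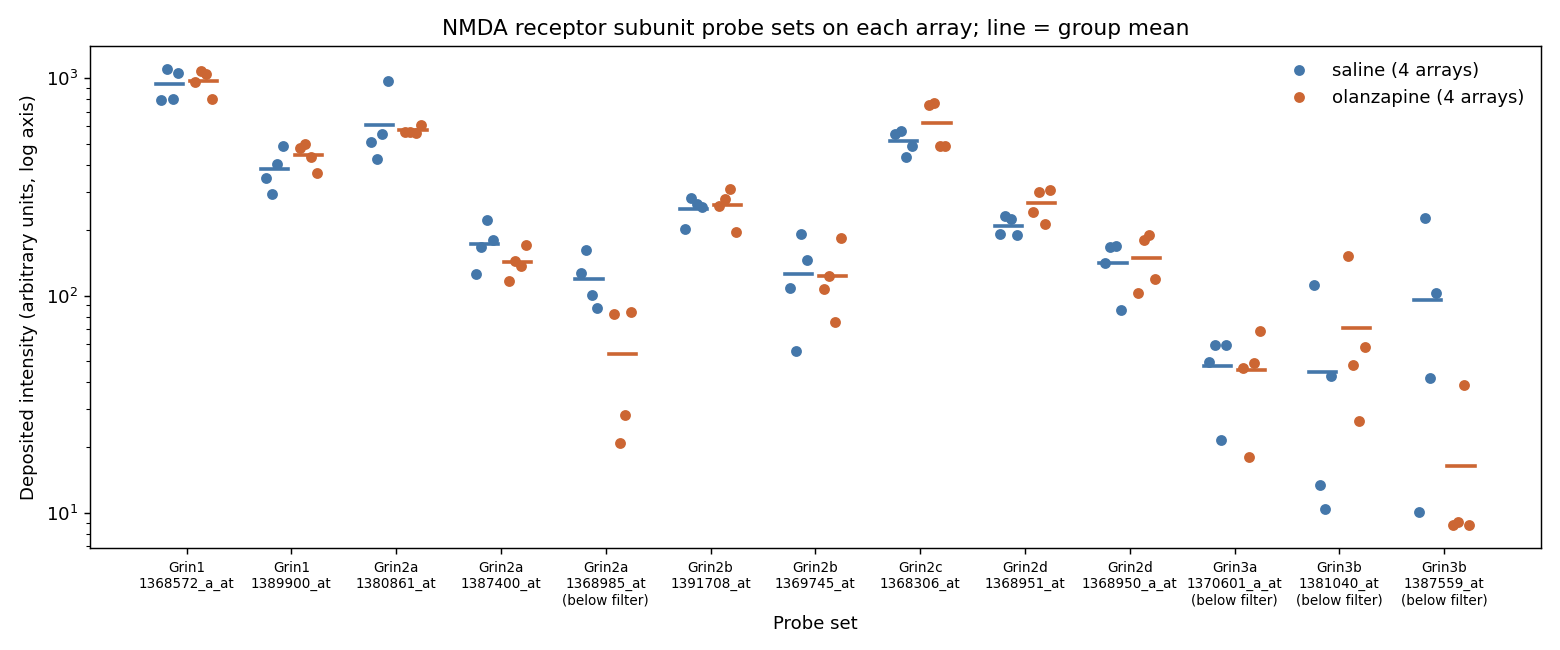
Deposited intensity (log axis, arbitrary units) of each of the 13 NMDA receptor subunit probe sets on 4 saline and 4 olanzapine arrays, with lines at the group means. The 2 groups overlap in every probe set but 1368985_at of Grin2a, and heights are not to be compared between probe sets.

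Grin1 encodes the subunit that every NMDA receptor needs, and its brightest probe set, 1368572_a_at, stood at percentile 84.2 of mean log2 value among all probe sets. Its intensity was 793, 1106, 803 and 1055 in saline 14, 15, 17 and 19, and 959, 1079.9, 1044 and 807 in olanzapine 9, 14, 18 and 19. Both groups held lower and higher arrays, and they overlapped over nearly their whole range. Saline averaged 939.5 ± 164 and olanzapine 972 ± 121 (SD, n = 4 each). The difference was 0.053 (SE 0.14, limma adjusted p = 0.944), with a 95% interval of -0.24 to 0.34, or 0.848-fold to 1.27-fold.

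The other Grin1 probe set, 1389900_at, was dimmer. It read 348, 292, 404 and 486 in saline 14, 15, 17 and 19, and 478, 498, 435 and 368 in olanzapine 9, 14, 18 and 19. Its difference was 0.20 (SE 0.16, limma adjusted p = 0.796), with an interval of 0.906-fold to 1.45-fold. Saline 15 was the highest of all 8 arrays on 1368572_a_at and the lowest of all 8 on 1389900_at. Olanzapine 19 was the lowest olanzapine array on both.

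Grin2a encodes GluN2A, the main GluN2 subunit of the adult cortex beside GluN2B, and it had 3 probe sets whose values varied differently over the arrays. The brightest, 1380861_at, read 507, 423, 551 and 967 in saline 14, 15, 17 and 19. In olanzapine 9, 14, 18 and 19 it read 563, 568, 562 and 612. The olanzapine values were within a narrow band inside the wide saline range, which saline 19 stretched upward. The SD was 243 in saline and 23.9 in olanzapine, around means of 612 and 577. The difference was -0.018 (SE 0.19, limma adjusted p = 0.990) with an interval of 0.749-fold to 1.30-fold, and without saline 19 it was 0.21 (limma adjusted p = 0.608).

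The middle Grin2a probe set, 1387400_at, read 125, 167, 222 and 179 in saline 14, 15, 17 and 19, and 117, 145, 137 and 170.4 in olanzapine 9, 14, 18 and 19. The groups overlapped, and the difference was -0.19 (SE 0.20, limma adjusted p = 0.840).

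The dimmest Grin2a probe set, 1368985_at, was removed by the filter, at percentile 30.5 of mean log2 value. It read 127, 161, 100.4 and 87.3 in saline 14, 15, 17 and 19, and 82.1, 21.0, 28.1 and 84.2 in olanzapine 9, 14, 18 and 19. All 4 olanzapine values were below all 4 saline values, but the nearest arrays, saline 19 and olanzapine 19, lay close together. Among probe sets below the filter, 1.21% had all olanzapine values under all saline values, a share that counts this direction only. In either direction the groups did not overlap in 3.8% of all 31042 probe sets that are not controls. Saline averaged 119 ± 32.6 and olanzapine 53.9 ± 34.0 (SD, n = 4 each). In a fit over all 31042 probe sets the difference was -0.67 (SE 0.25, 95% interval -1.22 to -0.11), with an unadjusted p of 0.0225 and a limma adjusted p of 0.680. The exact permutation test, two-sided over all 70 ways to assign the arrays, gave p = 0.0286, the smallest it can give. Over 15 alternative settings the difference ran from -1.06 to -0.52 and the limma adjusted p from 0.409 to 0.984, and the probe set was called in 0 of them. The other Grin2a probe sets, both brighter, had differences nearer 0. Their intervals, -0.42 to 0.38 and -0.62 to 0.23, did not reach -0.67 but overlapped the interval of 1368985_at, -1.22 to -0.11. Whether the probe sets of Grin2a differ from each other in this was not tested.

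Grin2b encodes GluN2B, the subunit that carries much of the receptor's binding to CaMKII, and neither of its 2 probe sets differed beyond the spread between arrays. The brighter, 1391708_at, read 203, 280, 264 and 254 in saline 14, 15, 17 and 19. In olanzapine 9, 14, 18 and 19 it read 259, 277, 309.8 and 196. The means were 251 ± 33.1 and 261 ± 47.9, and the difference was 0.040 (SE 0.17, limma adjusted p = 0.970), or 0.799-fold to 1.32-fold by its 95% interval.

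The dimmer Grin2b probe set, 1369745_at, read 108, 55.3, 192 and 147 in saline 14, 15, 17 and 19, and 107, 123, 75.7 and 184 in olanzapine 9, 14, 18 and 19. Its difference was 0.0012 (SE 0.27, limma adjusted p = 0.999), with a residual SD at percentile 90.3 among all tested probe sets. The arrays did not fall in the same order on the 2 probe sets. Saline 15 was the highest saline array on the brighter and the lowest on the dimmer one, and olanzapine 19 was the lowest olanzapine array on the brighter and the highest on the dimmer one.

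Grin2c, which encodes GluN2C and is best known from cerebellar granule cells, was read by 1 probe set, 1368306_at. It was at 557, 571, 432 and 488 in saline 14, 15, 17 and 19 and at 751, 766, 489 and 489 in olanzapine 9, 14, 18 and 19. The olanzapine arrays split into a pair above every saline array and a pair inside the saline range. The means were 512 ± 64.3 and 623 ± 156 (SD, n = 4 each), and the difference was 0.23 (SE 0.16, limma adjusted p = 0.761) and an interval of -0.11 to 0.58. The difference was 0.13 without olanzapine 14 and 0.33 without olanzapine 18.

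Grin2d encodes GluN2D, a subunit with slow deactivation found in interneurons of the cortex. The brighter of its 2 probe sets, 1368951_at, had the smallest limma p of the 9 tested. It read 192, 232, 224 and 189 in saline 14, 15, 17 and 19, and 243, 301, 214 and 307 in olanzapine 9, 14, 18 and 19. Of the 4 olanzapine arrays, 3 were above every saline array and olanzapine 18 lay inside the saline range. The means were 209 ± 21.8 and 266 ± 45.3, the difference was 0.27 (SE 0.17, limma adjusted p = 0.738) and the exact permutation p was 0.114. Its 95% interval was 0.938-fold to 1.54-fold, and the difference stayed between 0.20 and 0.53 over 16 alternatives. The 0.53 came from a block on the number in the array title, where only arrays 14 and 19 of each group bear on the difference.

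The dimmer Grin2d probe set, 1368950_a_at, read 141, 167, 168 and 85.4 in saline 14, 15, 17 and 19, and 103, 181, 189.8 and 119 in olanzapine 9, 14, 18 and 19. Its difference was 0.052 (SE 0.23, limma adjusted p = 0.971). Olanzapine 18 was the lowest olanzapine array on 1368951_at and the highest of all 8 on 1368950_a_at.

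The GluN3 genes were at the dim end of the array. The only Grin3a probe set, 1370601_a_at, was at percentile 18.6 and read 49.4, 58.9, 21.7 and 59.0 in saline 14, 15, 17 and 19, and 46.4, 18.0, 48.7 and 68.6 in olanzapine 9, 14, 18 and 19. Its difference in the fit over all probe sets was -0.030 (SE 0.20, limma adjusted p = 0.989). For Grin3b, 1381040_at ran from 10.4 to 112 in saline and from 26.4 to 152 in olanzapine, with a difference of 0.33 (SE 0.32, limma adjusted p = 0.883). The other Grin3b probe set, 1387559_at, read 10.1, 227, 41.6 and 102 in saline 14, 15, 17 and 19 and 8.83, 9.07, 38.8 and 8.76 in olanzapine 9, 14, 18 and 19. It had the largest difference of the 13, -0.82 (SE 0.35, limma adjusted p = 0.689), but the groups overlapped and the exact permutation p was 0.0571. With 1 array left out this difference ran from -1.12 without saline 14 to -0.46 without saline 15. The 2 Grin3b probe sets thus differed in opposite directions, each over a more than 10-fold range between arrays, 14.5-fold and 25.9-fold. No detection calls were used here, so whether Grin3a and Grin3b were above background was not tested.

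**Figure D2:**
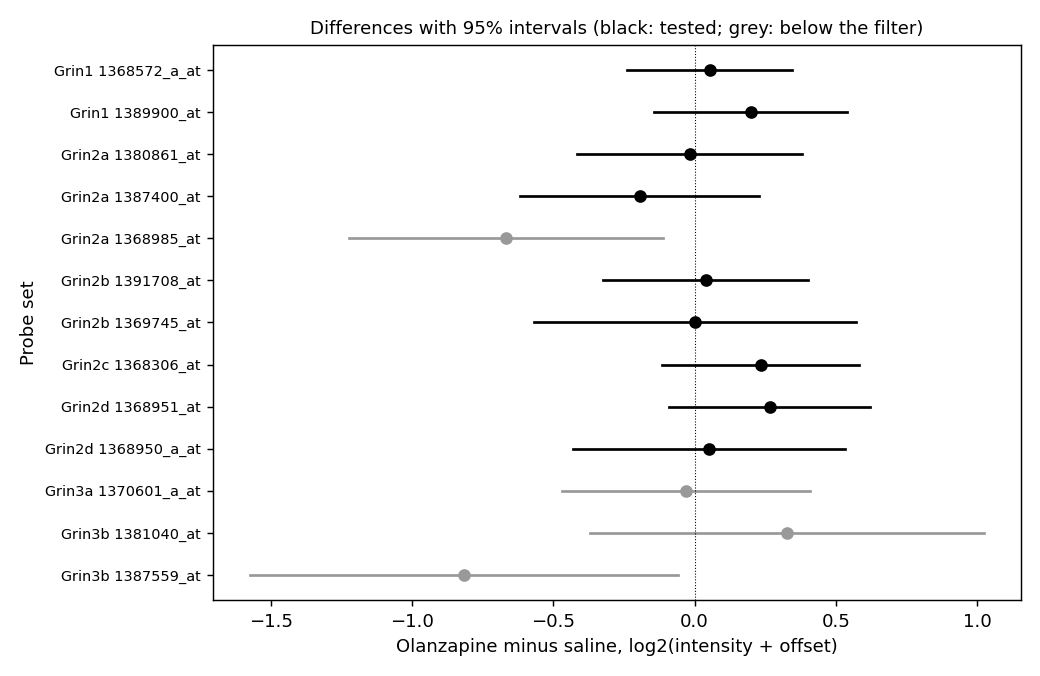
Difference between olanzapine and saline (points, log2 scale) with 95% intervals from limma for the 13 NMDA receptor subunit probe sets, black for the 9 above the filter and grey for the 4 below it. All 9 black intervals include 0, and the grey intervals of 1368985_at (Grin2a) and 1387559_at (Grin3b) do not, with adjusted p-values of 0.680 and 0.689.

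The 95% intervals state what size of change of intensity + 63.4 these arrays left possible. Intervals for the fold of intensity itself would be wider, most of all for dim probe sets. Over the 9 tested probe sets the lower bounds ran from 0.652-fold for 1387400_at of Grin2a to 0.938-fold for 1368951_at of Grin2d. The upper bounds ran from 1.17-fold for 1387400_at to 1.54-fold for 1368951_at. These intervals are not adjusted for the number of probe sets, and a p above the threshold does not show that the groups were alike. None of the 13 probe sets lay among the brightest 5% of the array.

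Of the 5 genes with a probe set above the filter, the 4 with several probe sets on the array showed different orders of the arrays from one probe set to the next. No array was high or low in all members either. Over the 13 probe sets, the highest of 8 values fell on saline 15 in 3, on saline 17, olanzapine 14, olanzapine 18 and olanzapine 19 in 2 each, and on saline 19 and olanzapine 9 in 1 each. The mean deviation of an array from its group, over the 9 tested probe sets, lay between -0.12 for saline 14 and 0.12 for olanzapine 14.

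**Figure D3:**
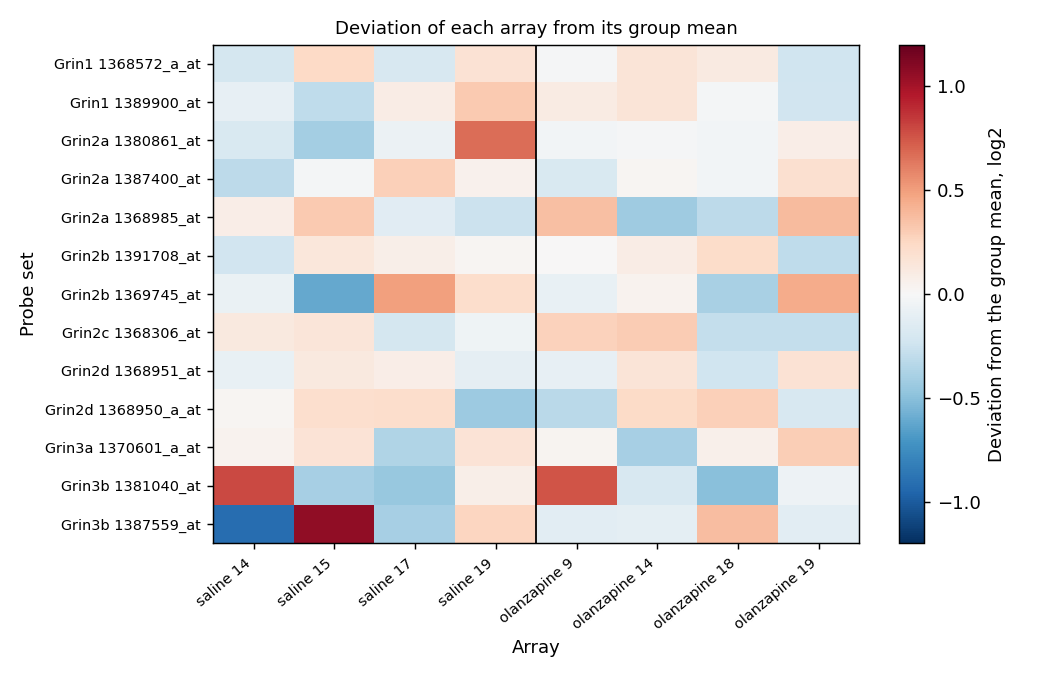
Deviation of each array from the mean of its own group (colour, log2 scale) for the 13 NMDA receptor subunit probe sets, saline arrays left of the line and olanzapine arrays right of it. The strongest colours are in Grin3b and in saline 19 for 1380861_at of Grin2a, and no column is of one colour throughout.

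The balance between subunits was compared on the same array, as the log2 difference between the brightest probe sets of a pair of genes. Such a difference is not a ratio of transcript amounts, since each probe set has its own brightness. Its change between groups describes unequal change on this log2 scale only. The added value shrinks changes of dim probe sets more, so equal proportional changes could also shift it. Grin2a minus Grin2b, the pair whose balance shifts as the cortex matures, was 1.10, 0.50, 0.91 and 1.70 in saline 14, 15, 17 and 19. In olanzapine 9, 14, 18 and 19 it was 0.96, 0.89, 0.75 and 1.38. The olanzapine values all lay inside the saline range, and the means were 1.05 ± 0.50 and 0.99 ± 0.27 (SD, n = 4 each).

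Relative to Grin1, the group means differed by -0.071 for Grin2a, -0.014 for Grin2b, 0.18 for Grin2c and 0.21 for Grin2d. The groups overlapped for every one of these 4 pairs. Grin2b minus Grin1 had the narrowest spread of them, -1.67 ± 0.18 in saline and -1.68 ± 0.08 in olanzapine.

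**Figure D4:**
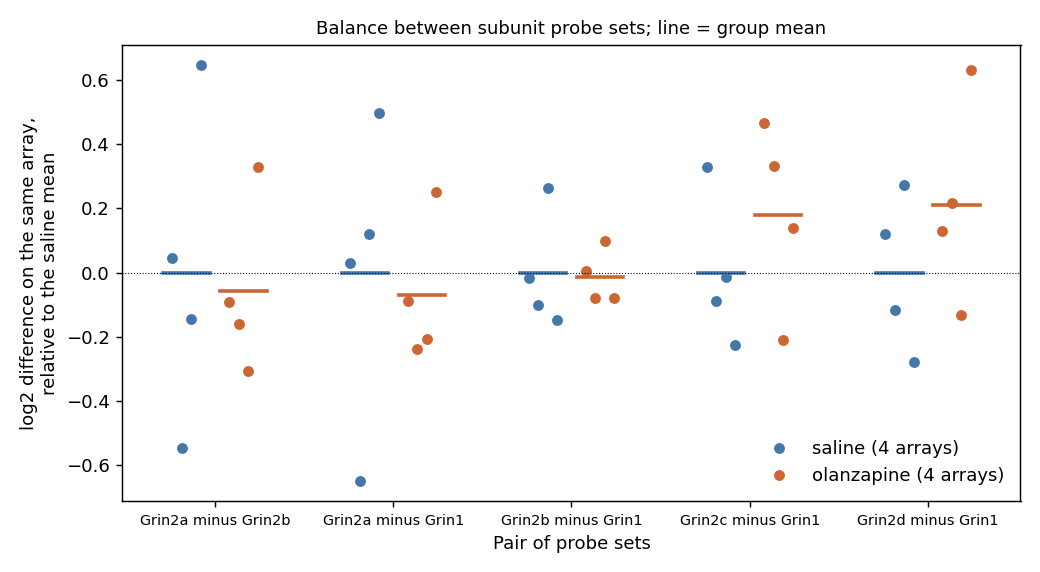
Log2 difference between 2 subunit probe sets on the same array, relative to the mean of the saline arrays, for 5 pairs of genes on 4 saline and 4 olanzapine arrays, with lines at the group means. The groups overlap in all 5 pairs.

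Genes that act with the receptor were read in 4 lists, 1 probe set per gene, the brightest. None of the 36 genes above the filter passed the adjusted test, and 3 had an unadjusted p under 0.05, against 8.48% of all 10123 genes tested. The postsynaptic list holds scaffolds that anchor the receptor, such as Dlg4 (PSD-95), and kinases and phosphatases that act on it or downstream of its calcium. Of its 25 genes, 21 were on the array and 19 above the filter. Of these 19, 6 were higher and 13 lower in olanzapine, beside 5401 higher and 4722 lower of all 10123 genes tested. The median of the 19 was -0.055 beside 0.015 over all 10123, and 0 passed the adjusted test. The groups did not overlap for 2 of the 19, against 4.58% of all tested genes.

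Those were Ppp3ca, which encodes the catalytic subunit of the calcium-dependent phosphatase calcineurin, and the calmodulin gene Calm2. Ppp3ca read 16172, 15659, 17827 and 14611 in saline 14, 15, 17 and 19, and 14457, 12599, 13065 and 13034 in olanzapine 9, 14, 18 and 19, a difference of -0.27 (SE 0.08, limma adjusted p = 0.374). Calm2 read 6598, 7589, 6687 and 6779.6 in saline and 6061, 5444, 6449 and 6259 in olanzapine, a difference of -0.19 (SE 0.08, limma adjusted p = 0.555). Both were among the brightest 2% of probe sets, at percentiles 99.9 and 98.4. Median centring took their differences to -0.32 and -0.24, cyclic loess to -0.065 and -0.064, and quantile normalization to -0.0048 and -0.062. The other tested Ppp3ca probe set was also lower in olanzapine without overlap, at -0.29 (SE 0.09), and at -0.019 after quantile normalization. Csnk2b, the regulatory subunit gene of casein kinase 2, followed at -0.18 (SE 0.13, limma adjusted p = 0.777). The PSD-95 gene Dlg4 differed by 0.039 (SE 0.11) and the CaMKII genes Camk2a and Camk2b by 0.14 (SE 0.15) and -0.10 (SE 0.08). Each of these genes also had a dimmer tested probe set with a difference of the opposite sign.

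Of 10 genes of receptor trafficking, 8 were on the array and 6 above the filter, 2 of them higher and 4 lower, with a median of -0.099 and 0 passing. Cask, which encodes a scaffold of the complex that carries GluN2B vesicles, was at 774 ± 97.9 in saline and 601 ± 121 in olanzapine (SD, n = 4 each). It differed by -0.34 (SE 0.15, limma adjusted p = 0.546), and the groups overlapped through olanzapine 18 and olanzapine 19. Lin7b of the same complex differed by -0.27 (SE 0.15, limma adjusted p = 0.703). Snx27, an endosomal sorting gene, differed by 0.090 (SE 0.09, limma adjusted p = 0.836), and its other tested probe sets by -0.044 (SE 0.21) and 0.29 (SE 0.15).

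Supply and removal of the co-agonists glycine and D-serine was read from 12 genes, of which 11 were on the array and 7 above the filter. Of these 7, 5 were higher and 2 lower, with a median of 0.15 and 0 passing. The median was 0.036 without saline 14, 0.063 without saline 15, 0.090 without olanzapine 9 and 0.054 without olanzapine 19. The glycine transporter gene Slc6a9 differed by 0.19 (SE 0.17, limma adjusted p = 0.819) and Slc7a10, a transporter of small neutral amino acids including D-serine, by 0.18 (SE 0.19, limma adjusted p = 0.846). Without olanzapine 19 the latter was 0.054. Phgdh, the first enzyme of serine synthesis, differed by 0.24 (SE 0.28, limma adjusted p = 0.865), where saline 14 read 41.9 and the other 3 saline arrays 174 to 230.5. Without saline 14 its difference was -0.089.

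The kynurenine pathway makes kynurenate, which blocks the co-agonist site, and quinolinate, which activates the receptor. All 11 of its genes were on the array but only 4 were above the filter, 2 higher and 2 lower, with a median of -0.094 and 0 passing. Kyat1 and Kyat3, which encode kynurenine aminotransferases, differed by -0.26 (SE 0.18, limma adjusted p = 0.760) and -0.19 (SE 0.18, limma adjusted p = 0.832). Without olanzapine 19 these were -0.12 for both. Qprt, which removes quinolinate, differed by 0.24 (SE 0.19, limma adjusted p = 0.794), and by 0.085 without olanzapine 9. The median of the list was 0.018 without saline 19 and -0.011 without olanzapine 19. With all tested probe sets of the list in place of the brightest per gene, the median was 0.032, and this takes in 3 probe sets of Afmid, all higher.

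**Figure D5:**
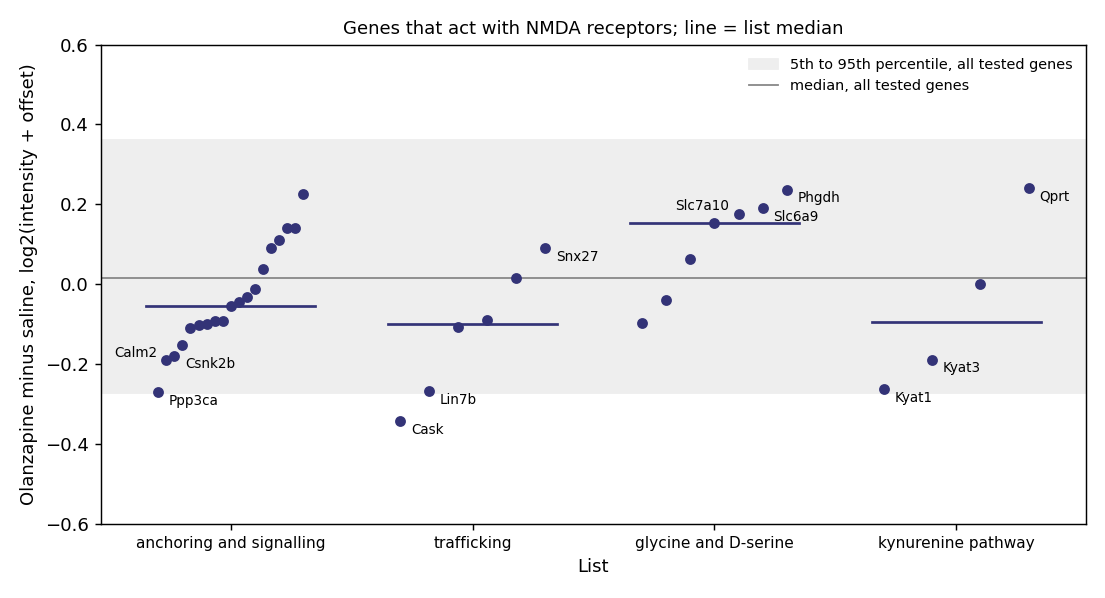
Difference between olanzapine and saline (log2 scale, brightest probe set of each gene) for the tested genes of 4 lists of genes that act with NMDA receptors, with the list median as a line and the 5th to 95th percentile of all tested genes, -0.27 to 0.36, shaded. Only Cask lies outside the shaded band, and the 3 genes of each list with the smallest p are named.

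For each subunit gene above the filter, the genes whose deviations from the group means were most alike over the 8 arrays are given as a description. Likeness was the Pearson correlation with the brightest probe set of each of 10122 other genes, so the highest of so many over 8 arrays are high by choice. For Grin1 they were Ap4s1, Ogdh and Lzts3 at 0.971 to 0.982. For Grin2a they were Gng8, Arhgap20 and Mrps18b at 0.961 to 0.962. For Grin2b they were Mt2A, Ly6h and Aldh3a2 at 0.967 to 0.978. For Grin2c they were Med23, Pard6b and Stradb at 0.957 to 0.961. For Grin2d they were Ift52, Gstm4 and Gnb5 at 0.958 to 0.978. No subunit gene was among the 3 genes most like another, and each had 13 to 48 genes with a correlation above 0.9.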

How the data were processed

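The authors' deposited table holds linear intensity values of 31099 probe sets on 8 arrays, with no software, background correction or detection calls given in the sources used here. Their mean without the lowest and highest 2% was equal on all arrays, which shows a common scaling, and this scaling was kept. Gene names are those of the platform table of 2016, brought up to date through Entrez identifiers with RefSeq (GRCr8, names only). Of 31042 probe sets that are not controls, 20826 had 1 symbol, 436 several and 9780 none.

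Values were converted to log2(intensity + 63.4) and compared in limma 3.58.1 under R 4.3.3 (lmFit, eBayes with trend, two-sided, Benjamini-Hochberg over the 18625 probe sets left by the filter). Probe sets below the filter were taken from the same model over all 31042. The model was tested on simulated data. Alternatives were another added value, no filter and a stricter one, 3 other scalings and array weights. Further ones were a block on the number in the array title, a plain two-sample test and each array left out. The number of arrays limits the precision. Named were all 13 member probe sets, the 3 genes with the smallest p in each list, and the 3 most alike genes per member. Dlg4, Camk2a, Camk2b and Afmid were named after their values were seen. The members and lists were chosen with earlier results of these data known.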

Additional observations from a re-analysis of the deposited data

Results flagged for a closer look

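Among 50 groups of 4 arrays examined, for the 13 subunit probe sets and the 12 named partner genes in each group, 2 held an array that stood apart by Dixon's test at the 95% level, and chance gives about 1 in 20. Gaps are given on the scale log2(intensity + 63.4). For 1380861_at of Grin2a, olanzapine 19 read 612 where the other olanzapine arrays read 562 to 568. The gap was 0.873 of the range, with all 4 values close together. For 1387559_at of Grin3b, olanzapine 18 read 38.8 where the others read 8.76 to 9.07, a gap of 0.988 of the range at the dim end of the array.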

How the results depend on the processing

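The count of called NMDA receptor subunit probe sets was 0 in every alternative run. Over all probe sets the count was 0 except with 1 array left out, where it ran from 0 to 107 (107 without saline 19, 1 without olanzapine 9), and with the block on the title number, where it was 6. The numbers 14 and 19 occur in both groups, which were made up of different rats. Deviations of same-numbered arrays correlated at 0.075 and 0.11. No differently numbered pairs were set beside these, and whether a shared number marks shared handling was not tested. The other numbers occur in 1 group each, so only the arrays numbered 14 and 19 bear on the differences of that fit. With this replicate block the tested subunit probe sets had a median of 0.050, 1387400_at of Grin2a turned to 0.043, 1381040_at of Grin3b to -0.23 and Csnk2b to 0.0017, and the postsynaptic list had a median of 0.010. After median centring, quantile normalization and cyclic loess, 1391708_at of Grin2b was at -0.012, -0.024 and -0.026, 1369745_at of Grin2b at -0.051, -0.052 and -0.062, and 1368950_a_at of Grin2d at -0.00018, -0.0022 and -0.014. With array weights 1369745_at was at -0.094. With 1 array left out, values ran from -0.017 to 0.13 for 1368572_a_at of Grin1, from -0.15 to 0.21 for 1380861_at of Grin2a, from -0.036 to 0.14 for 1391708_at, from -0.20 to 0.16 for 1369745_at, from -0.092 to 0.16 for 1368950_a_at, from -0.15 to 0.10 for 1370601_a_at of Grin3a and from -0.089 to 0.40 for Phgdh. The list medians ran from -0.099 to 9.6e-05 for the postsynaptic list, from -0.14 to -0.049 for trafficking, from 0.036 to 0.16 for glycine and D-serine and from -0.18 to 0.018 for the kynurenine pathway. The glycine and D-serine median was 0.063 with the filter at the 60th percentile, and the kynurenine median was -0.24 with the block. The causes were not tested. Of 530 values computed under alternatives, 497 kept their direction and side of the threshold or, for medians and counts, stayed within the spread between arrays or within 1.5 times. Signal near the dim end limits Grin3a, Grin3b and 1368985_at of Grin2a, whose values have no detection call.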
